A study of Mus musculus with 8 samples.

Results

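The 5hmC peaks of untransfected mouse ESCs were compared with those of ESCs transfected with a control hairpin, to describe which promoters, gene bodies and gene groups were under 5hmC peaks in 1 library and not in the other. The ESCs are the E14 line, a male mouse line kept in serum and LIF. The ESC library comes from E14 cells with no transfection, and the shGFP library from E14 cells that received a hairpin RNA directed at GFP, a jellyfish protein that mouse cells lack, so that the hairpin has no cellular target. For the silencing transfections of the study the methods give 3 days of selection with 1 µg/ml puromycin, an inhibitor of translation that kills cells without the vector, and they give no separate statement for shGFP. The nuclear peaks with a deposited score of at least 80 in both libraries were taken, which left 171865 peaks in ESC and 74496 in shGFP, 246361 of the 948510 nuclear peaks in the 6 libraries of 5hmC in the series. Each condition is 1 library, so no difference below was tested and none can be set against a spread between replicates.

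5hmC is made from 5mC by the Tet enzymes, and it is both an intermediate of DNA demethylation and a lasting mark in ESCs, brain and other tissues. In ESCs it lies in gene bodies, at enhancers and around promoters, whereas the CpG islands of active genes are mostly free of both 5mC and 5hmC. Developmental regulators that ESCs hold silent, such as the Hox genes, carry both H3K4me3 and Polycomb's H3K27me3 over long CpG-rich stretches. GLIB-Seq adds a glucose to 5hmC, oxidises it with periodate and couples it to biotin, so that the fragments pulled down are those that held 5hmC.

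To show what the promoters at issue look like, the 300 bases upstream of the TSS are printed for 3 genes whose promoter was under peaks in shGFP and under none in ESC. They are the first 3 by covered bp with no exon in that window and no gap in the assembly, in the NCBIM37 reference (the assembly of mm9), 5′ to 3′ on the gene's strand, with each CpG in capitals.
Tmem159 (chr7:127245590-127245889, plus strand): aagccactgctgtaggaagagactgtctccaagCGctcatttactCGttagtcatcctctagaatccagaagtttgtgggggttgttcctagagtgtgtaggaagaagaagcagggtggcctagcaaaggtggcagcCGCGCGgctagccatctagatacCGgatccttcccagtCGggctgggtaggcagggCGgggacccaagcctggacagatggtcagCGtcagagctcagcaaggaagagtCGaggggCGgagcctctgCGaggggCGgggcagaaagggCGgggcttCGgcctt
Gm10000 (chr12:105712398-105712697, plus strand): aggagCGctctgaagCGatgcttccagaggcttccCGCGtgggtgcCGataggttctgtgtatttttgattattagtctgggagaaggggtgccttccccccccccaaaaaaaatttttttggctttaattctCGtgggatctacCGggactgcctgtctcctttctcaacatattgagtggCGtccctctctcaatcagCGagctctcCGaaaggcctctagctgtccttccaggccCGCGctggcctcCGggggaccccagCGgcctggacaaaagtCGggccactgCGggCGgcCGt
Syt6 (chr3:103378854-103379153, plus strand): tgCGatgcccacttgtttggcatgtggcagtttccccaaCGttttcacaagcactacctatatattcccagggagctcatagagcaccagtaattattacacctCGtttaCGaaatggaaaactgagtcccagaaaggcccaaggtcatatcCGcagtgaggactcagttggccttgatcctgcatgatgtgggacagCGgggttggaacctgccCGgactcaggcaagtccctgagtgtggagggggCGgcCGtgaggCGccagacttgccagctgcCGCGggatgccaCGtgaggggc
All 300 bases of each lay under a shGFP peak. They hold 15 CpGs before Tmem159, 18 before Gm10000 and 13 before Syt6, a synaptotagmin of secretory vesicles.

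The next 3 were chosen by the same rule among the promoters under a peak in ESC and with no shGFP peak of any score, again with each CpG in capitals.
Apoa5 (chr9:46076416-46076715, plus strand): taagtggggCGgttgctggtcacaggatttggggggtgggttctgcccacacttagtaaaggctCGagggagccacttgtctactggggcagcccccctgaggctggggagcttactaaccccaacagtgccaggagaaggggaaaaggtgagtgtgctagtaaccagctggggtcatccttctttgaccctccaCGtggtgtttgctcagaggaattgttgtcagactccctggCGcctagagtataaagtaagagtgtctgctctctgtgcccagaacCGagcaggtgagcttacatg
Sema3b (chr9:107511561-107511860, minus strand): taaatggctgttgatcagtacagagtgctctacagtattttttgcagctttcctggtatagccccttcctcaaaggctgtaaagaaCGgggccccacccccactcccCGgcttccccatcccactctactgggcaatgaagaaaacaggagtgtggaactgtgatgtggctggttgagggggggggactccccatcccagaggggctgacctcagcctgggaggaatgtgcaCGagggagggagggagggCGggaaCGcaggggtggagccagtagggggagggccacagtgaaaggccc
Cldn6 (chr17:23816032-23816331, plus strand): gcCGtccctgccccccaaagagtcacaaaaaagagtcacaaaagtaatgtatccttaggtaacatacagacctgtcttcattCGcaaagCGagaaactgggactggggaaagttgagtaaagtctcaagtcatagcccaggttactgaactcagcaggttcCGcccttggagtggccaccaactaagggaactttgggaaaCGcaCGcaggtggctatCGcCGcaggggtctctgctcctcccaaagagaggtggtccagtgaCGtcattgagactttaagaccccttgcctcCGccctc
All 300 bases of each lay under an ESC peak. They hold 5 CpGs before Apoa5, an apolipoprotein that controls plasma triglycerides, 5 before Sema3b, a secreted semaphorin, and 10 before Cldn6, a tight junction claudin of early embryonic epithelia. Over all promoters of each kind the medians lay closer together, at 13 CpGs in the 300 bases upstream where shGFP alone had a peak, 10 where ESC alone had one and 9 where both had one, as well as 9 over all 22367 protein-coding genes.

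The peak lists differ in depth of score as well as in number, and that bears on each value below. The score is the authors' value from MACS, in which a larger number stands for a smaller p-value of the peak. The ESC list starts at 80 and the shGFP list at 50.02, and of the 132996 nuclear shGFP peaks 56.0% reached 80. At the common score the median was 178 in ESC and 128 in shGFP, and 44.3% of ESC peaks but 21.9% of shGFP peaks reached 200. The peaks covered 179 Mb in ESC and 82.3 Mb in shGFP, 0.459 times as much, with median widths of 844 and 982 bp. Sequencing depth is unknown, so fewer 5hmC sites, shallower sequencing, the threshold of the peak calls, and the batch cannot be told apart as sources of the smaller list. Only the shGFP list holds peaks on both sides of the threshold. The 6673 shGFP peaks with a score from 75.01 to 79.99 had a median width of 703 bp and 69.9% overlapped an ESC peak, and the 5533 from 80.02 to 84.99 had 752 bp and 73.5%. The 8150 ESC peaks from 80 to 84.99 had 611 bp, and 10.3% of them overlapped a shGFP peak of 80 or more.

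As a check of the labels, the 20000 highest-scoring peaks of each library were compared. Of those in shGFP 58.2% overlapped one of ESC, 36.9% one of shSuz12, 20.5% one of MEFs, 22.4% one of brain and 22.7% one of liver. The share with ESC was the highest of the 5, but the peaks met were not of equal extent, at 43.6 Mb in ESC, 17.3 Mb in shSuz12, 39.02 Mb in MEFs, 46.1 Mb in brain and 55.01 Mb in liver, so the shares for ESC and shSuz12 cannot be ranked by closeness. Brain and liver had the lower shares at a larger extent than ESC. Among ESC marker genes, Dppa3, a maternal factor also called Stella, had its promoter (TSS ± 1 kb) under peaks for 1414 bp in ESC and 1463 bp in shGFP. Esrrb, a nuclear receptor of the pluripotency network, had 1572 and 1462 bp. Pou5f1, Sox2, Klf4 and Zfp42 had 0 bp in both, and Nanog had 0 bp in both at this score, with a shGFP peak of score 69.1 over 608 bp of its promoter. A peak does not measure transcription, so these genes were not a check of whether the cells were pluripotent.

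At the common score most shGFP peaks fell on ESC peaks, and most ESC peaks had no shGFP partner. Of the 74496 shGFP peaks, 65291 overlapped an ESC peak by at least 1 bp (87.6%, 95% interval 87.4 to 87.9%). Of the 171865 ESC peaks, 64929 overlapped a shGFP peak (37.8%, 95% interval 37.5 to 38.0%). The second statement turned at other settings, since 56.4% of ESC peaks had a partner with the shGFP list as deposited, 62.4% with equal numbers of peaks and 72.9% with equal bp. The intervals here and below are exact (Clopper-Pearson) and cover counting error only. Of the 106936 ESC peaks with no partner, 31934 (29.9%) did overlap a shGFP peak with a score of 50 to 80. The 9205 shGFP peaks with no ESC partner had a median score of 99.4 and lay at a median of 2161 bp from the nearest ESC peak, with 34.0% within 1 kb.

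The score of the ESC peak went with whether it was kept. Of ESC peaks with a score of 80 to 100, 11.6% overlapped a shGFP peak, against 41.2% at 200 to 300 and 87.7% at 500 and over. At 54583 sites where exactly 1 peak of each library met 1 of the other, the median score was 321 in ESC and 131 in shGFP, and the ESC score was the higher at 90.6% of them. The shGFP score was the higher at the other 5135 sites.

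Position in the gene added to this. ESC peaks with their midpoint in a promoter were kept in 49.7% of cases, those in exons in 40.8%, those in introns in 36.2% and those between genes in 38.0%. Within a class of similar score the promoter peaks were also the most often kept, for example 52.1% at a score of 200 to 300, where exons were at 36.1%, introns at 38.9% and peaks between genes at 44.7%. Exon peaks had the lowest kept share in each class below 500, and over all classes more of them were strong, with 4405 of 20208 at 500 and over against 11410 of 83812 intron peaks.

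**Figure D1:**
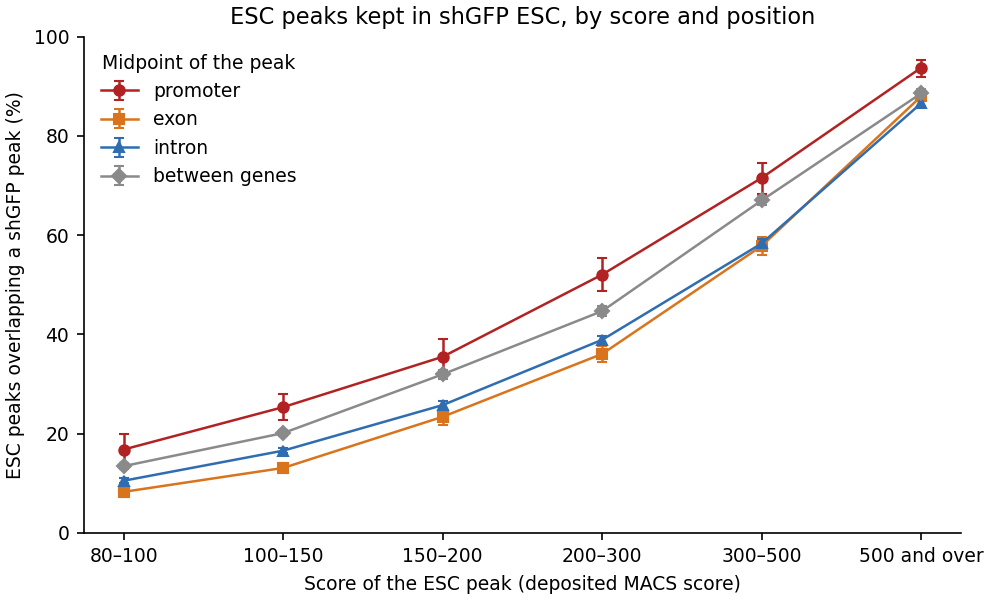
Share of ESC peaks that overlapped a shGFP peak (y axis, percent) by the score of the ESC peak (x axis, classes) and by the position of its midpoint (colours), with exact 95% intervals that cover counting error only. Promoter peaks lie above the other positions in each class, such as 52.1% against 36.1 to 44.7% at scores of 200 to 300.

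CpG content separated the libraries further. The genome has 0.834 CpG per 100 bp, and the median peak had 1.71 in ESC and 1.87 in shGFP. ESC peaks with fewer than 1 CpG per 100 bp were kept in 19.7% of cases, those with 1 to 2 in 35.1%, those with 2 to 3 in 46.0%, those with 3 to 4 in 54.9% and those with 4 to 6 in 71.4%. This held in part at a similar score, since among peaks with scores of 100 to 150 the kept shares were 17.2, 17.6 and 17.4% up to 3 CpG per 100 bp, then 25.7% at 3 to 4 and 47.5% at 4 to 6.

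At the CpG-dense end the smaller list held the larger number of peaks. Peaks with at least 4 CpG per 100 bp numbered 1766 in shGFP (2.37%, 95% interval 2.26 to 2.48%) and 1150 in ESC (0.669%, 95% interval 0.631 to 0.709%). Of those in shGFP 36.4% touched a promoter, and of those in ESC 32.3%. The shGFP peaks with no ESC partner fell into extremes, with a median of 1.43 CpG per 100 bp, below that of the 65291 with a partner (1.93), but 3.45% of them CpG-dense against 2.22%. The other transfected library, shSuz12, which carries a hairpin against a Polycomb subunit, held 1074 CpG-dense peaks, 4.55% of its 23594. MEFs, brain and liver were at 0.382, 0.49997 and 0.488%. Both transfected libraries thus had the higher shares, and a common batch or preparation cannot be told apart from transfection. Their CpG-dense peaks were not alike in position, since 17.9% of those in shSuz12 touched a promoter, against 36.4% in shGFP.

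**Figure D2:**
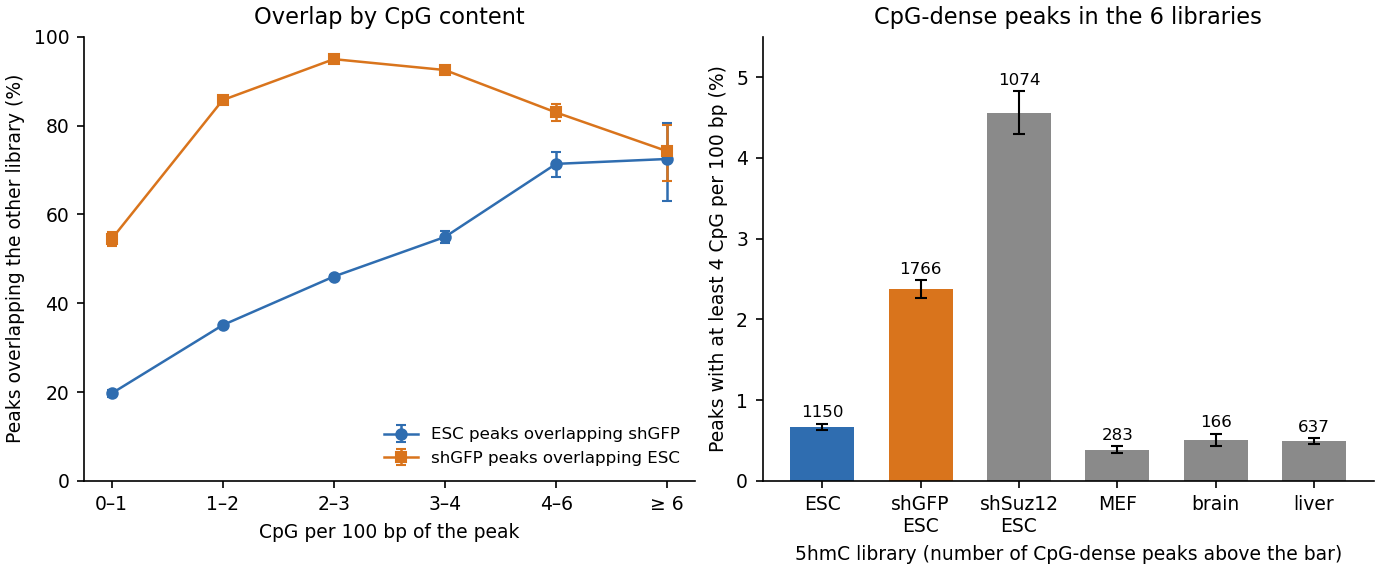
Left, share of peaks that overlapped a peak of the other library (percent) by the CpG content of the peak (CpG per 100 bp), for ESC peaks and for shGFP peaks. Right, share of peaks with at least 4 CpG per 100 bp (percent) in each 5hmC library at a score of at least 80, with the number of such peaks above each bar, 1150 in ESC and 1766 in shGFP; error bars are exact 95% intervals for counting error only.

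Among the 22367 protein-coding promoters, 7139 (31.9%) were under a peak in ESC and 4255 (19.02%) in shGFP. Both libraries covered 3710. Peaks in ESC alone, called lost below, marked 3429, which is 15.3% of all promoters and 48% of those covered in ESC. Peaks in shGFP alone, called gained below, marked 545, which is 2.44% of all promoters and 12.8% of those covered in shGFP. The remaining 14683 were under no peak. Gained and lost name the library that had the peak, and no more is meant by them.

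Peaks of low score were common in both groups. Of the lost promoters 1146 (33.4%) had a shGFP peak with a score of 50 to 80, and 2283 had none at any score. The gained promoters could not be checked in this way, since the ESC list holds no peak below 80. The lost share went from 83.2% where the best ESC peak scored 80 to 100 down to 15.9% at 500 and over, where 285 of 1789 promoters were lost. Most losses thus sat at the weaker ESC peaks, with a median score of 168 against 406 at promoters covered in both. Gained promoters had a median of 600 bp covered and a median score of 115, and the highest score among them was 710. Of the 545, 87 had at least 1000 bp covered and 225 had under 500 bp.

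Peaks of the other library were often close by. An ESC peak lay within 1 kb beyond the promoter window at 220 of the 545 gained promoters (40.4%), against 18.3% of the promoters covered in neither library. At the lost promoters a shGFP peak lay within the same distance at 651 of 3429 (18.99%), against 6.54%. Gained and lost promoters therefore include some where the other library had a peak just outside the window. At promoters covered in both, ESC had more bp in 2185 and shGFP in 1490, and the median of shGFP minus ESC was -67 bp.

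Promoters are commonly sorted by the CpG content around the TSS into high (HCP), intermediate (ICP) and low (LCP) classes. HCPs belong mostly to housekeeping genes and developmental regulators, and LCPs mostly to tissue-specific genes. The 7658 HCPs were covered in 27.1% of cases in ESC and 14.8% in shGFP. The 5571 ICPs were at 41.1 and 26.5%, and the 9138 LCPs at 30.4 and 17.98%. Of the promoters covered in ESC, shGFP kept 44.4% of HCPs, 56.2% of ICPs and 54.1% of LCPs, against 52% over all. Of the promoters covered in shGFP, 18.9% of HCPs were gained, 12.9% of ICPs and 8.58% of LCPs, so the high class had the largest lost share and the largest gained share. By the score of the best ESC peak the order was not uniform. Below 300 HCPs were kept as often as LCPs or more often, from 17.3 against 13.5% at 80 to 100 to 46.6 against 43.8% at 200 to 300, and above it less often, with 57.3 against 64.7% at 300 to 500 and 77.1 against 87.7% at 500 and over. The covered bp of HCPs was 0.665 times as long in shGFP, that of ICPs 0.716 times and that of LCPs 0.568 times, so by bp the low class had the largest loss.

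At the start site itself the CpG-rich classes differed from their surroundings. In HCPs the TSS was under a peak at 133 genes in ESC (1.74%) and at 197 in shGFP (2.57%), 1.48 times as many, although between 1 and 2 kb away shGFP had 0.428 times the ESC share. Of those 197 TSSs, 106 were under a shGFP peak alone, and of the 133 in ESC 42 were under an ESC peak alone. In ICPs the TSS was at 13.9% in ESC and 13.1% in shGFP, while the flanks were at 17.6 and 8.91%. The ICP profile in ESC thus dipped at the TSS to 0.789 times its flanks, and in shGFP it stood at 1.47 times. In LCPs, where both libraries peaked at the TSS, 18.9% were covered in ESC and 11.2% in shGFP, 0.593 times as many, with the flanks at 0.498 times.

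**Figure D3:**
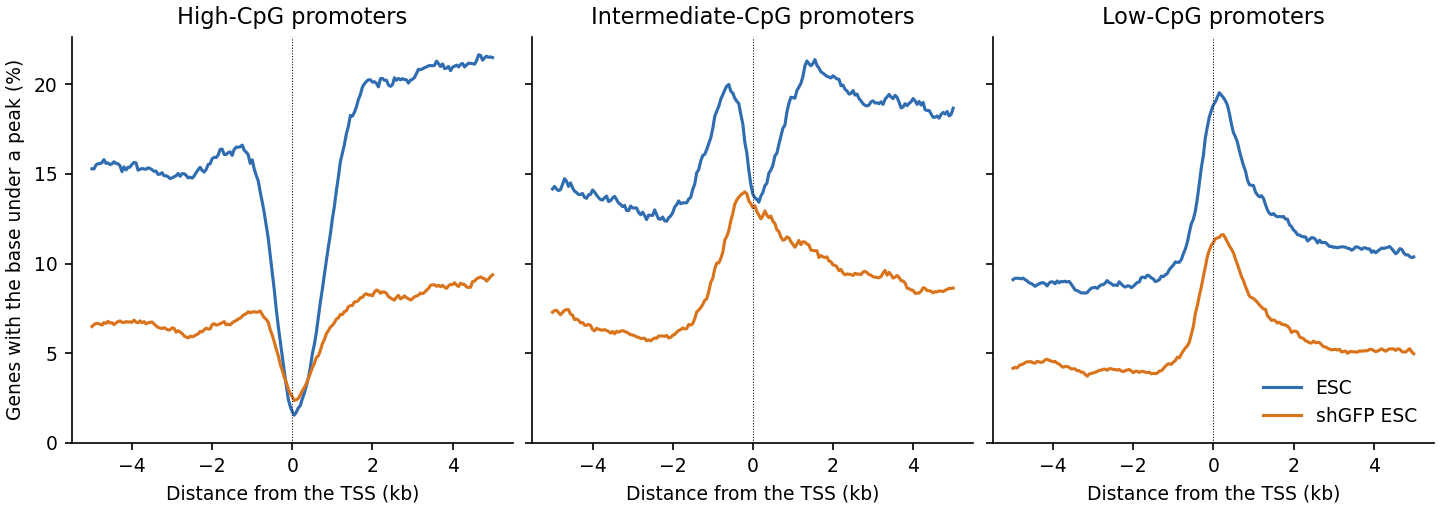
Share of genes with the base under a 5hmC peak (y axis, percent) by distance from the TSS (x axis, kb, gene direction to the right) in high-, intermediate- and low-CpG promoters, for ESC and shGFP. The shGFP line is far below the ESC line in the flanks but meets or passes it at the TSS of high-CpG promoters (2.57 against 1.74%) and nearly meets it at intermediate ones (13.1 against 13.9%).

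Over all genes the covered promoter sequence was 0.635 times as long in shGFP as in ESC, and the covered gene body sequence 0.437 times. Relative to the fold over the whole genome, promoters were retained 1.38 times as well, and gene bodies 0.948 times as well.

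The 10 gained promoters with the most covered bp belonged to genes of many kinds. Tmem159 (chr7:127245890-127264506) had its whole 2000 bp window under a shGFP peak with a score of 271, and the ESC peak in its gene lay 12722 bp past the TSS. Ch25h (chr19:34548276-34549625), the enzyme that makes 25-hydroxycholesterol, had 1910 bp under peaks with scores up to 131. Next came Gm10000 with 1830 bp and Syt6 with 1699 bp, then CK137956 with 1660 bp and a score of 355. Slc7a10, a neutral amino acid transporter, had 1600 bp, Col9a3, a type IX collagen chain of cartilage, 1582 bp, and Tmem130 1555 bp. Itpkb, an inositol trisphosphate kinase, had 1506 bp and Sstr2, a somatostatin receptor, 1488 bp. Each of these 10 had 0 bp in ESC, whose list holds no peak below 80. Slc7a10 alone among them also had a shSuz12 peak, over 176 bp.

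The 10 lost promoters with the most covered bp in ESC and no shGFP peak of any score were led by Runx3 (chr4:134676567-134733905), a transcription factor of T cells and neurons. Its promoter had 1970 bp under an ESC peak with a score of 875 that ran from -2005 to 969 bp of the TSS. A shGFP peak with a score of 102 ended at -1076 bp, just outside the window, and 28.7% of the Runx3 gene body stayed under shGFP peaks against 46.9% in ESC. Apoa5 had 1937 bp, Sema3b 1930 bp with a score of 676, and Slc22a12, the renal urate transporter, 1930 bp. Cldn6 had 1868 bp with a score of 801. Wfdc12 had 1817 bp, Tex11, an X-linked meiotic gene, 1807 bp, and Pcbd1, a pterin dehydratase, 1805 bp. Taf6l had 1799 bp and Cib2, a calcium-binding protein, 1771 bp. In shSuz12 4 of the 10, Cldn6, Wfdc12, Pcbd1 and Cib2, had a peak over 455 to 865 bp of the promoter.

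Transcription factors that pattern the embryo stood apart from the general loss. After their values had been seen, the genes of 22 families were grouped by symbol (Hox, Pax, Sox, Fox, Lhx, Nkx, Tbx, Zic, Dlx, Irx, sine oculis homeobox, Pitx, Gata, Neurog, Olig, Barhl, Barx, Gbx, Msx, Otx, Pou3f and Pou4f), so the following counts are a description. The symbol rule also took Gatad1, Gatad2a and Gatad2b, which are chromatin cofactors and not GATA factors, and their promoters were under no peak in either library. Of the 206 promoters in the 22 families 71 were covered in ESC and 84 in shGFP. Both libraries covered 57, 14 were lost (19.7% of those covered in ESC) and 27 were gained (13.1% of 206). Among the other 22161 protein-coding genes 48.3% of those covered in ESC were lost and 2.34% were gained. The covered promoter sequence of the families was 1.23 times as long in shGFP, against 0.629 times for the other genes. Without the Hox genes it was 1.23 times as well, and 22 of 166 promoters were gained. The 7572 other HCP genes had 0.654 times the bp, with 56.0% lost and 2.68% gained.

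Kept and gained shares of the families stayed above those of the other genes at other settings, but the excess of shGFP over ESC did not stay. At a score of 100 in both libraries 69 family promoters were covered in ESC and 68 in shGFP, with 1.102 times the bp. At 150 they were 59 and 47, with 0.903 times the bp, against 0.468 times for the other genes. With the shGFP list as deposited they were 71 and 101, and with equal bp 39 and 84. The families kept 55.9 to 85.9% of their ESC promoters and the other genes 36.3 to 75.4%, with the families higher at a score of 100 or 150 in both libraries, with the shGFP list as deposited and with equal bp. Gained promoters made up 6.80 to 24.8% of the families and 1.06 to 8.07% of the other genes.

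The Hox genes, which set position along the body axis, had 5% of their ESC promoters lost, against 25.5% in the other families together. Their gained share of 12.5% and bp ratio of 1.22 were near the 13.3% and 1.23 of the other families. Of 40 annotated entries 20 were covered in ESC and 24 in shGFP, with 19 covered in both, 1 lost and 5 gained. The gained promoters were Hoxa2 with 962 bp, Hoxb1 with 1017 bp, Hoxb9 with 340 bp, Hoxc9 with 282 bp and Hoxd11 with 279 bp. Hoxd1, with 677 bp in ESC, was the lost one. In the body of Hoxc6 (chr15:102828688-102842312), 14.8% lay under ESC peaks and 50.4% under shGFP peaks. Its ESC peaks scored 150 to 251, and the shGFP peak at its 3′ end was 3168 bp wide with a score of 675. Hoxb3 had 22.2% in ESC and 30.9% in shGFP, and Hoxc4 14.5 and 22.0%. Of the 6 Hox bodies of at least 10 kb, 3 were higher in shGFP by at least 5 percentage points and 0 were lower by that much. Hox genes lie in clusters in which neighbours share peaks, so they are not independent examples.

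Single genes of other families were also gained, while the family totals varied. Forkhead (Fox) promoters numbered 12 in ESC and 14 in shGFP, with 4 lost, 6 gained and 1.001 times the bp, and Sox promoters 8 and 9, with 1.68 times the bp. T-box (Tbx) promoters numbered 7 and 7 with 0.813 times the bp, Irx 2 and 2 with 0.719 times, Nkx 5 and 4 with 1.03 times and Gata 4 and 2 with 0.705 times. Olig3, a factor of the hindbrain and spinal cord, had 0 bp of its promoter covered in ESC and 1387 bp in shGFP. Sox17, a driver of endoderm, had 0 and 1372 bp, and Neurog3, which specifies the endocrine pancreas, 0 and 1360 bp. Pitx1, a hindlimb and pituitary factor, had 254 and 1688 bp. Foxa1, Foxc1, Foxc2 and Foxf1a, all mesoderm or endoderm regulators, had 0 bp in ESC and 637 to 802 bp in shGFP. Lhx6, Tbx5, Gbx2, Pax9 and Msx1 had 0 bp in ESC and 538 to 968 bp in shGFP. Among the lost was Gata4, a heart and endoderm factor, which had 1178 bp in ESC at a score of 227 and no shGFP peak of 80 or more, with 548 bp under a lower one.

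Germ layer and trophectoderm regulators, a list overlapping with these families, had 16 of 38 promoters covered in ESC and 15 in shGFP. Of them 8 were covered in both, 8 lost and 7 gained, so the totals were close while part of the genes differed. The lost share was 50% of those covered in ESC, near the 48% over all genes, and the gained share 18.4% of the list, against 2.44%. Besides Sox17, Foxa1 and Msx1 the gained ones included Gsc, the organiser gene goosecoid, with 927 bp, Fgf5 with 687 bp and Hand2 with 651 bp. Krt18, a keratin of simple epithelia, was lost from 1603 bp with a score of 580, but a shGFP peak under 80 covered 1591 bp of it.

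Among 31 pluripotency factors 4 promoters were covered in ESC (12.9%) and 6 in shGFP (19.4%), against 31.9 and 19.02% over all genes. By covered bp the list was lower in shGFP, with 5415 bp in ESC and 5048 bp in shGFP, 0.932 times as long, against 0.635 times over all genes. Of them 1 was lost and 3 were gained, 9.68% of the list against 2.44% over all. Sall4, a zinc finger partner of Pou5f1, had 0 bp in ESC and 771 bp in shGFP, Klf5 0 and 174 bp, and Nr5a2, a nuclear receptor, 0 and 101 bp. The shGFP scores there were 163 at Sall4, 139 at Klf5 and 80.3 at Nr5a2, so the gain at Nr5a2 barely reached the threshold of 80. Prdm14, which restrains FGF signalling and DNA methylation, had 784 bp in ESC and no shGFP peak. Tcl1 was covered in both, with 1645 bp at a score of 822 and 1077 bp at a score of 220.

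Signalling genes of ESCs (LIF, FGF, BMP and Wnt) had 18 of 50 promoters covered in ESC and 16 in shGFP. Wnt3, a ligand of gastrulation and of ESC self-renewal, had 727 bp under a peak of score 118 in ESC and its whole 2000 bp under a peak of score 846 in shGFP. Fgf5, an epiblast ligand, and Dkk1, a Wnt antagonist, had 0 bp in ESC and 687 and 550 bp in shGFP. Fgfr1 has a pair of annotated entries, with 1179 and 919 bp in ESC and 0 bp in shGFP, although 807 bp of the former were under a shGFP peak below 80.

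Germline genes had the highest share of covered promoters of the lists counted here in both libraries, at 39 of 46 promoters in ESC and 35 in shGFP. Such genes are silenced by promoter methylation in somatic cells and carry 5hmC in ESCs. Both libraries covered 33. Lost were 6, 15.4% of those covered in ESC, against 48% over all genes. Gained were 2, 4.35% of the list, against 2.44% over all genes. Stra8, needed for entry into meiosis, had 2000 bp at a score of 1217 in ESC and 391 bp at 214 in shGFP. Piwil1, a piRNA-binding protein of spermatids, was lost from 1519 bp with a score of 1026, and 987 bp of it lay under a shGFP peak below 80. Zp3, an egg coat glycoprotein, was gained with 1442 bp and Tex14 with 720 bp.

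Lists of genes that could respond to transfection, to a hairpin or to the puromycin given for the silencing transfections were also counted, although whether the shGFP cells met puromycin is not stated. Interferon and nucleic acid sensing genes had 25 of 50 promoters covered in ESC and 15 in shGFP, with 11 lost and 1 gained. The gained one was Zbp1, a sensor of Z-form nucleic acids, with 1080 bp, and Tmem173, the adaptor STING, was lost from 1364 bp. The p53 response list had 8 of 33 covered in ESC and 3 in shGFP, with 5 lost and 0 gained. Cdkn1a, the p21 inhibitor of the cell cycle, had 1322 bp at a score of 569 in ESC and no shGFP peak at any score. Apoptosis genes had 19 of 39 and 15 of 39 covered, with Casp8 gained at 963 bp. Translation factors and integrated stress response genes had 9 of 44 and 8 of 44 covered, and Atf3, a stress-induced factor, was gained with 449 bp. Heat shock genes and chaperones had 7 of 31 and 2 of 31 covered. Drug efflux transporters had 9 of 19 and 5 of 19 covered, with 5 lost and 1 gained. That gain was Abcb1a, a P-glycoprotein gene whose product exports drugs, with 1207 bp at a score of 137. Abcc6, another transporter of the list, had 65 bp in ESC and 1312 bp in shGFP. The hairpin machinery list (small RNA genes) had 3 of 26 covered in both libraries, with 0 lost. Over all genes 52% of promoters covered in ESC were kept, and these lists kept from 2 of 7 to 3 of 3, so small counts limit what can be read from them. These totals are those at the common score. With equal bp ESC covered 3198 promoters and shGFP 4255 over all genes, so a higher total in shGFP was general there. The interferon list then had 12 promoters in ESC and 15 in shGFP with 1 lost and 4 gained, and the p53 list 3 and 3 with 2 lost and 2 gained. Apoptosis genes had 8 and 15, translation and stress response genes 5 and 8, and drug efflux transporters 3 and 5, while heat shock genes stayed lower in shGFP at 3 and 2.

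**Figure D4:**
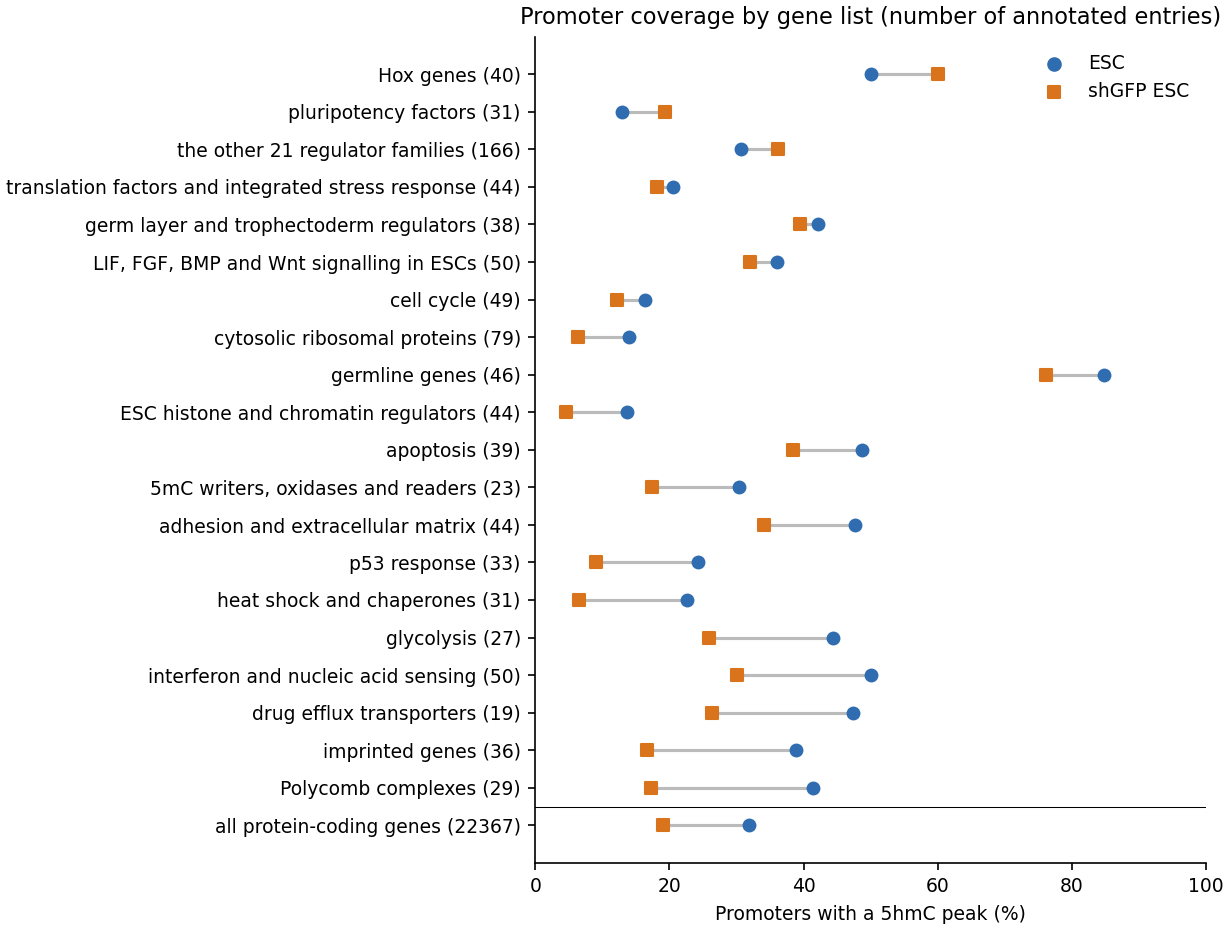
Share of promoters under a 5hmC peak (x axis, percent) in ESC (circles) and shGFP (squares) for the gene lists named beside each line (number of annotated entries in brackets), ordered by the difference, with all 22367 protein-coding genes at the bottom. Hox genes (20 and 24 of 40), pluripotency factors and the other regulator families lie higher in shGFP, and the other lists drawn lie lower, at a score of at least 80 in both libraries.

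In several lists shGFP kept fewer promoters than the 52% over all genes at the common score. The kept share was 41.7% in Polycomb complex genes, 28.6% in imprinted genes and 15.8% in mitochondrial ribosomal protein genes. It was 34.6% in zinc finger genes, 34.1% in olfactory receptors and 27.3% in cytosolic ribosomal protein genes. Keratins, counted beside them, kept 50%, near the share over all genes. Polycomb complex genes had 12 of 29 promoters covered in ESC and 5 in shGFP, with 0 gained, and 0.248 times the covered bp. Cbx7, a chromodomain subunit of PRC1, had 1797 bp at a score of 531 in ESC and 9 bp in shGFP, and Pcgf5 had 787 bp in ESC and no shGFP peak. Imprinted genes had 14 of 36 and 6 of 36 covered and 0.304 times the bp. Peg10 was lost from 825 bp and Igf2r from 1001 bp, with 691 bp of the latter under a shGFP peak below 80, while Grb10 was gained with 890 bp. Mitochondrial ribosomal protein genes (symbols starting with Mrp) had 19 of 78 covered in ESC and 3 in shGFP. Zinc finger genes (Zfp) had 81 of 374 and 36, keratins (Krt) 38 of 100 and 19, and olfactory receptors (Olfr) 41 of 1113 and 14, with 0 gained among keratins and receptors. Cytosolic ribosomal protein genes had 11 of 79 and 5 of 79, with 3 kept and 2 gained, but 1.09 times the bp. With equal bp most of the lower totals in shGFP were absent or turned, while over all genes they were 3198 in ESC and 4255 in shGFP. Polycomb genes then had 5 promoters in each library, imprinted genes 5 in ESC and 6 in shGFP, keratins 19 and 19, zinc finger genes 26 and 36 and cytosolic ribosomal protein genes 2 and 5, while mitochondrial ribosomal protein genes had 4 and 3 and olfactory receptors 19 and 14. The lost share was still high in some lists, against 24.5% over all genes with equal bp. Zinc finger genes lost 12 of 26, mitochondrial ribosomal protein genes 3 of 4 and Polycomb genes 2 of 5. Olfactory receptors lost 5 of 19, keratins 3 of 19, imprinted genes 1 of 5 and cytosolic ribosomal protein genes 1 of 2.

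Other lists kept a share near that over all genes or held few covered promoters, and some of the latter kept a lower share. Among the enzymes and readers of DNA methylation, 7 of 23 promoters were covered in ESC and 4 in shGFP, all 4 of them covered in both, and with equal bp 4 in each. Tet3, the oxidase of the oocyte and of neurons, was lost from 559 bp, and Dnmt3l, the cofactor of the de novo methyltransferases, had 1779 bp at a score of 848 in ESC and 893 bp at 145 in shGFP. Cell cycle genes had 8 of 49 covered in ESC and 6 of 49 in shGFP, with 3 kept and 0.281 times the bp, and with equal bp 2 and 5. Adhesion and matrix genes had 21 of 44 and 15 of 44, and glycolysis genes 12 of 27 and 7 of 27. ESC chromatin regulators had 6 of 44 and 2 of 44, with 2 kept. None of the 15 genes found of a 2-cell-stage list had a covered promoter in either library. Cdh1, the E-cadherin that holds ESC colonies together, was gained with 608 bp.

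Gene bodies, taken from 1 kb past the TSS to the gene's end and counted where at least 10 kb long, were mostly lower in shGFP. The median of 13009 bodies was 10.9% under peaks in ESC and 2.89% in shGFP. In 7288 bodies (56%) shGFP was lower by at least 5 percentage points, in 52 (0.4%) it was higher by at least 5 points, and in 528 it was higher by any amount. It was lower by any amount in 10339 (79.5%) and equal in 2142. Across these genes Spearman's rho between the libraries was 0.848, a description over genes that share both libraries and are not independent.

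The 5 bodies with the largest deficit in shGFP were short and heavily covered in ESC, and so large a deficit requires heavy coverage in ESC. Usp19, a deubiquitinase, had 77.3% in ESC and 7.60% in shGFP, Kri1, a ribosome biogenesis factor, 65.8 and 1.28%, and Abca2, a lipid transporter of the nervous system, 85.7 and 22.1%. Neurl4 had 61.3% in ESC and 0% in shGFP, and Prosc 65.1 and 3.85%. All 5 have HCP promoters, as do 5681 of all 13009 bodies. Among genes named in the study, Cdc25a, a cell cycle phosphatase, had 40.0% in ESC and 13.7% in shGFP, and Kdr, the VEGF receptor, 12.0 and 5.57%.

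Of the 52 bodies that were higher by at least 5 points, 9 belonged to the 22 regulator families, which make up 67 of the 13009 bodies. In the families 13.4% of bodies were higher in shGFP by that much, against 0.332% of the other 12942, and 38.8% were lower by that much, against 56.1%. Besides 3 Hox genes they included Zic4 with 4.78% in ESC and 16.9% in shGFP, and Lhx9, a gonad and limb factor, with 3.66 and 15.4%. Nkx2-2, a factor of the ventral spinal cord and of islet cells, had 14.8 and 25.3%, and the skeletal factors Pax1 and Pax9 had 11.3 and 18.5% and 3.38 and 9.199%. Tbr1, a T-box factor of the cortex that the symbol rule leaves out, had 25.6 and 39.7%. Cdkn2a (chr4:88920377-88940557), the Ink4a/Arf tumour suppressor that Polycomb silences in young cells, had no ESC peak in its body, and shGFP peaks with scores up to 520 covered 17.2% of it. Forkhead genes went the other way in their bodies, where 13 of 17 were lower in shGFP and 0 higher by at least 5 points.

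**Figure D5:**
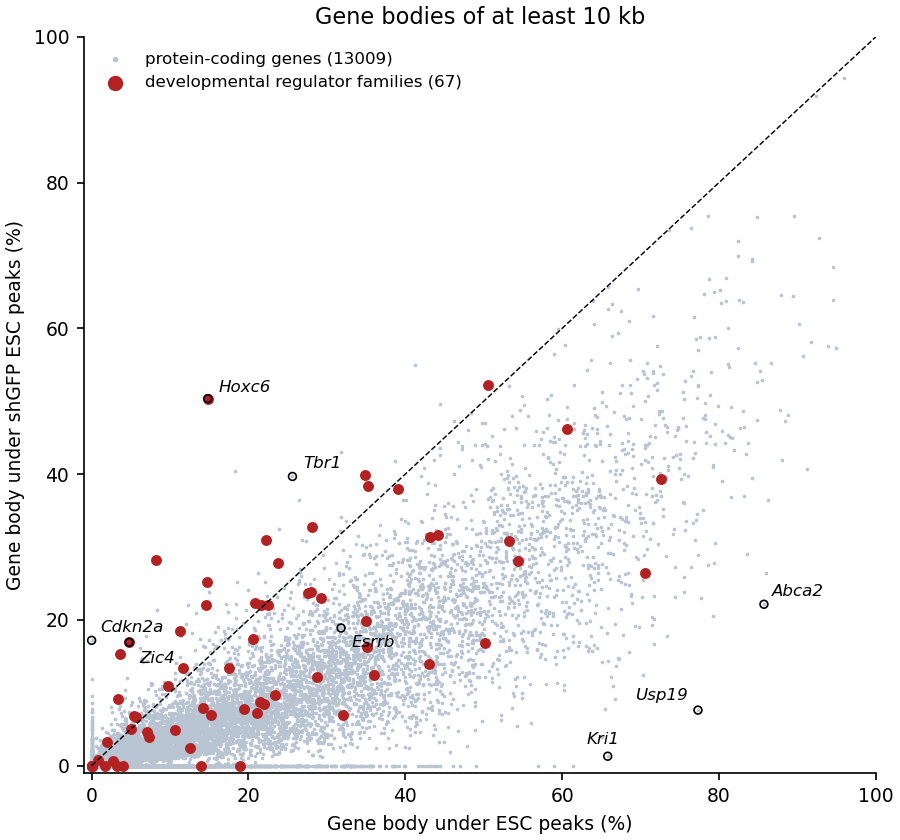
Percentage of each gene body of at least 10 kb under ESC peaks (x axis) and under shGFP peaks (y axis), for 13009 protein-coding genes (grey) and the 67 bodies of 22 developmental regulator families (red); the dashed line marks equal values. Most genes lie below the line, and Hoxc6 (14.8 and 50.4%) and Tbr1 lie well above it.

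The other libraries were looked up at the same promoters. Of the 545 gained promoters 28 had a shSuz12 peak (5.14%, 95% interval 3.44 to 7.34%), against 54 of the 14683 covered in neither library (0.368%). MEFs had a peak at 13.03% of gained promoters against 5.73%, liver at 31.0% against 21.2%, and brain at 1.83% against 1.95%. At lost promoters shSuz12 had a peak at 5.02%, against 23.7% of those covered in both ESC and shGFP, and liver at 46.9% against 45.4%. The shSuz12 share was 5.07% over all promoters, 14.7% over those covered in ESC and 0.538% over those without an ESC peak. Promoters covered in both ESC and shGFP also had stronger ESC peaks than lost ones, with median scores of 406 and 168.

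By the kept share of peaks chromosomes were similar, with exceptions on the sex chromosomes, which held few peaks. The kept share of ESC peaks ran from 33.7% on chromosome 14 to 44.0% on chromosome 8 among the autosomes. On X it was 21.3% of 328 peaks, and 59 of the 129 shGFP peaks there (45.7%) had no ESC partner, against 12.4% genome-wide. On Y 14 of 17 ESC peaks were kept. By covered bp X was close to the whole genome, at 0.466 times as long in shGFP against 0.459 times.

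When the ESC list was cut to its 49942 highest-scoring peaks (288 and over), it covered as many bp as the shGFP list. The order of the classes by share covered was then the same, but the balance was not. ESC then covered 3198 promoters and shGFP 4255, with 783 lost (24.5% of those in ESC) and 1840 gained, of which 1295 had an ESC peak below 288. HCPs were covered at 9.86% in ESC and 14.8% in shGFP, ICPs at 18.7 and 26.5%, and LCPs at 15.4 and 17.98%. With equal bp the shGFP list thus held more promoters in each class, and at an equal score fewer. The covered promoter bp of HCPs was then 1.73 times as long in shGFP, that of ICPs 1.39 times and that of LCPs 1.001 times. By bp the order of the classes thus differed from that at the common score, where ICPs had the highest ratio.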

How the data were processed

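GLIB-Seq libraries of ESC and shGFP ESC, 1 each, were compared. The authors mapped reads to mm9 with Bowtie 0.12.7, kept unique hits with up to 2 mismatches, removed duplicate reads and used MACS 1.4.1 to call peaks, and the deposited value of each peak is its MACS score. For GLIB-Seq the control and threshold of the peak calls are not given in the sources used here. The lists hold no read counts, so depth is unknown and precision is limited to counting error.

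Peaks on the nuclear chromosomes with a score of at least 80 were kept, and 1 mitochondrial ESC peak and 3 of shGFP were left out. Genes were those of GENCODE mouse release 1 (Ensembl 65) on NCBIM37, the assembly of mm9, with 22367 protein-coding entries, some of which share a symbol. The covered bp were counted in promoters (TSS ± 1 kb) and in gene bodies of at least 10 kb past the promoter. Promoters were put into CpG classes by windows of 500 bp, moved by 5 bp from -700 to 200 bp of the TSS. A promoter was HCP where a window had an observed to expected CpG ratio over 0.75 and over 55% GC, ICP where a ratio exceeded 0.48, and LCP otherwise. Shares have exact 95% intervals. No test was run, as each condition has 1 library.

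Named genes are those the paper names beside 5hmC (1 is not reported here), the 10 gained and 10 lost promoters with the most covered bp (the lost ones with no shGFP peak of any score), the 5 bodies at each end of shGFP minus ESC, and within each gene list the gained and the largest differences. Gm53, 1 of the 5 highest bodies, had 18.2% in ESC and 40.3% in shGFP, Alb had no peak in either library, and Eef1a1 had 690 and 561 bp of its promoter covered. Members and lists were chosen with earlier results of these data known. The regulator families, and the genes named from them, were chosen after their values were seen. Alternatives were other scores, equal numbers of peaks or bp, stricter overlap, other promoter widths, all annotated genes and other flanks. Functions were tested on simulated peaks. The software was Python 3.11.15 with scipy 1.17.1, numpy 2.4.6, matplotlib 3.10.9 and pandas 2.3.3. A few genes that the naming rule selects are not reported here.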

Additional observations from a re-analysis of the deposited data

How the results depend on the processing

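Of 83 recomputed values, 62 lay outside the counting interval of the value reported and 21 inside it. Some of the 21 could not move, because the setting left the list they rest on unchanged. An example is the share of promoters covered in ESC where only the shGFP list was altered. Among these 83 no ratio crossed 1 and no difference changed sign. Ratios of covered promoter bp in gene groups were not among them and did cross 1. That of the regulator families fell from 1.23 to 0.903 at a score of 150 in both libraries. With equal bp those of HCPs, ICPs and LCPs rose from 0.665, 0.716 and 0.568 to 1.73, 1.39 and 1.001. The order of the libraries did turn with equal bp, where shGFP covered more promoters than ESC, more shGFP promoters were gained than ESC promoters lost, and ESC peaks were shared more often than shGFP peaks. Promoter bp stayed above the genome and gene body bp below it in each alternative, and HCPs were kept less often than LCPs over all scores, though not within the classes of ESC score below 300. With 1 library a side, leaving out a replicate and a paired analysis were not possible. A score of at least 100 in both libraries gave 34.2% of ESC peaks kept, 89.1% of shGFP peaks shared, 29.0% of promoters covered in ESC, 15.5% in shGFP, 53.1% of ESC promoters lost and a TSS to flank ratio of 1.31 in shGFP. A score of at least 150 in both gave 26.0% of ESC peaks kept, 91.6% of shGFP peaks shared, 23.4% of promoters covered in ESC, 9.65% in shGFP, 63.4% of ESC promoters lost, 11.5% of shGFP promoters gained, a TSS to flank ratio of 0.841 in ESC, 1.4004 in shGFP, promoter bp kept 1.47 times as well as the genome and an HCP minus LCP difference in kept promoters of -6.10 points. The shGFP list as deposited, from a score of 50, gave 56.4% of ESC peaks kept, 76.3% of shGFP peaks shared, 27.1% of promoters covered in shGFP, 31.98% of ESC promoters lost, 19.97% of shGFP promoters gained, a TSS to flank ratio of 1.14 in shGFP, promoter bp kept 1.25 times as well as the genome and gene body bp 0.937 times. Equal numbers of peaks, taken from the top of the ESC list, gave 62.4% of ESC peaks kept, 65.9% of shGFP peaks shared, 19.15% of promoters covered in ESC, 31.3% of ESC promoters lost, 30.9% of shGFP promoters gained, a TSS to flank ratio of 0.870 in ESC, promoter bp kept 1.26 times as well as the genome and gene body bp 0.907 times. Equal bp gave 72.9% of ESC peaks kept, 52.99% of shGFP peaks shared, 14.3% of promoters covered in ESC, 24.5% of ESC promoters lost, 43.2% of shGFP promoters gained, a TSS to flank ratio of 0.902 in ESC, promoter bp kept 1.23 times as well as the genome and gene body bp 0.883 times. Counting only overlaps that span 50% or more of each of the peaks gave 31.0% of ESC peaks kept and 71.4% of shGFP peaks shared. Promoters of 500 bp on each side gave 22.4% of promoters covered in ESC, 14.2% in shGFP, 17.1% of shGFP promoters gained, promoter bp kept 1.53 times as well as the genome and an HCP minus LCP difference in kept promoters of -2.29 points. Promoters of 2 kb on each side gave 44.9% of promoters covered in ESC, 26.2% in shGFP, 46.6% of ESC promoters lost, 8.56% of shGFP promoters gained, promoter bp kept 1.204 times as well as the genome and an HCP minus LCP difference in kept promoters of -13.4 points. At least 200 bp of the promoter under a peak gave 28.3% of promoters covered in ESC, 17.3% in shGFP and 14.2% of shGFP promoters gained. All annotated genes gave 29.0% of promoters covered in ESC, 16.8% in shGFP, a TSS to flank ratio of 0.954 in ESC, 1.34 in shGFP and promoter bp kept 1.30 times as well as the genome. Flanks at 2 to 5 kb gave a TSS to flank ratio of 1.35 in shGFP. The share of regulator family promoters kept or gained in shGFP, added after the data had been seen, lay outside its interval in 4 of 8 alternatives. The part that library depth plays in the weaker peaks was not tested. A score close to the threshold of 80 in either library decides whether a site is counted as lost or gained.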
